A study of Urocitellus parryii with 24 samples.

Results

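Liver RNA of Arctic ground squirrels (AGS) in interbout arousal was compared with that of summer active animals, both at warm body temperature. The samples were chosen by their labels. All 8 animals with the status early arousal (4) or late arousal (4), called A, were set against all 7 with the status summer active, called P, so that 15 of the 24 arrays of the series carry the comparison. The other 9 arrays, of torpid animals (T), entered the fit and its estimate of the spread. Below they are used to show which values set A apart and which A has in common with T.

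The A animals were captive hibernators, kept under short days without food and carrying an implanted temperature transmitter. Early arousal was sampled 1 to 2 h and late arousal 7 to 8 h after body temperature had risen above 30 °C in rewarming from torpor. The P animals, which the paper describes as post-reproductive, molting and euthermic, are called summer active in the labels. Both groups were anesthetised with isoflurane before death, while torpid animals were not. All animals had chow when first housed, and the methods give no later diet or day length for P alone. Season, day length, fasting, the implant and recent torpor go with A and cannot be told apart. The labels give no genotype and no replicate numbers, so that each animal, with 1 array each, is the replicate.

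Hibernation in ground squirrels is a series of torpor bouts, during which body temperature falls close to that of the surroundings, interrupted by short arousals in which the animal rewarms to a normal temperature and then cools again. A hibernator in arousal returns to the warmth of a summer animal but lives on its fat, whereas a summer animal feeds. The liver answers feeding by making fat and sterols, and it answers fasting by making glucose and ketone bodies. It also makes bile acids, breaks down amino acids and clears foreign compounds.

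Each array was a nylon membrane with 9600 spotted cDNA probes. The level of a probe is given here as the log2 of its background-subtracted median signal divided by the median of the array, so that 0 is the level of the middle probe and a difference of 1 is a doubling. Levels of different probes are not compared. The A arrays were brighter than the P arrays: between 9022 and 9197 probes per array had a signal over 2 times the background in A and between 8157 and 8885 in P, without overlap (exact permutation test, 2-sided p = 0.000311, the smallest that 8 against 7 arrays allow). The part of this brightness in the differences below was not tested. The membranes also came from 2 filter sets, A1 and A2. The paper states that the RNA samples shared a batch, and its methods name no filter sets. A1 held 7 A and 2 P arrays, and A2 held 1 A array, of the late arousal animal 04-30, and 5 P arrays. The first part of the animal identifiers was 04 in 7 of 8 A animals and in 1 of 7 P animals. Every comparison was therefore fitted a second time with a term for the filter set, called the block below. The 04-30 array is late arousal replicate 2, and is named beside each count that it moves.

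Of 9598 probes tested with limma, 811 (8.45%) had an adjusted p under 0.05 for A against P, of which 251 (2.62%) were higher and 560 (5.83%) were lower in A. The block left 259 (2.7%), with 32 (0.333%) higher and 227 (2.37%) lower. It raised the median standard error of the difference from 0.209 to 0.243 on the log2 scale, and a call lost with it does not show that A and P were alike. Of the 811 probes, 806 kept their direction with the block and 188 were called again, 15 of the 251 higher probes and 173 of the 560 lower ones. Lower probes were thus called again more often than higher ones once the filter set was in the fit, a difference that was not itself tested. Within the A1 membranes 787 of the 811 kept their direction, within the A2 membranes, which hold a single A array, 729 did, and 707 kept it within both sets. Leaving out each array in turn gave between 476 and 1540 calls. The number was 1540 without late arousal replicate 2, the only A array on A2 membranes. It was 1191 and 1216 without summer active replicates 1 and 3, the 2 P arrays on A1 membranes. It was 539 without early arousal replicate 1 and 485, 476, 528 and 511 without summer active replicates 4, 5, 6 and 7. The part of the filter set in these changes was not tested. Under quantile normalization 290 of 571 called probes were higher in A, or 50.8% in place of 30.9%, and 281 were lower. With the first part of the animal identifiers in place of the filter set, called the identifier prefix below, 240 were called, 99 higher and 141 lower. With an array left out, between 352 and 970 probes were lower. List counts under these settings are to be read beside these totals.

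Gene symbols were available for 1329 probes, 1 for each gene that the study had selected. It had selected them because they differed among the 3 states on these same arrays. Where a gene had several probes, the study kept the one with the smallest p of its 3-state test. Members of a list or of the cell type markers are counted below, and called measured, only if they are among these 1329 genes. Other members may be among the probes without a symbol, so that the counts do not cover whole lists. Counts of genes below are therefore not independent evidence, and are read against the share of all 1329 genes: 511 (38.4%) differed between A and P, 161 (12.1%) higher and 350 (26.3%) lower in A. With the block, 130 (9.78%) differed, 15 (1.13%) higher and 115 (8.65%) lower, and 119 genes were called in both fits in the same direction, 11 higher and 108 lower in A. The groups did not overlap for 67 genes (5.04%), of which all A arrays lay above all P arrays for 6 (0.451%) and below them for 61 (4.59%). The cDNA probes can also bind RNA of close relatives, so that single members of the P450, UDP-glucuronosyltransferase, glutathione S-transferase and sulfotransferase families are uncertain. Counts over these families may therefore hold the same RNA more than once.

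**Figure D1:**
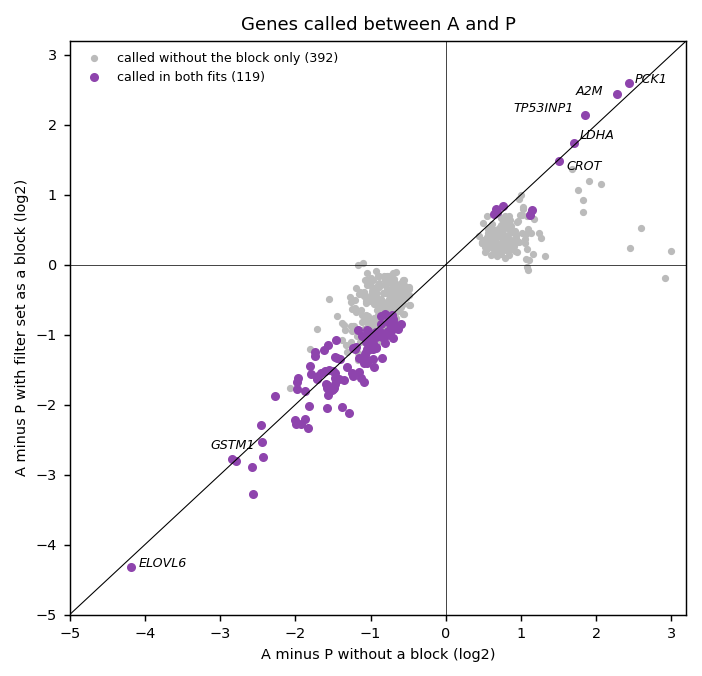
The log2 difference between A and P of the 511 genes called without a block (x axis) against the difference fitted with the block for filter set (y axis), with the line of equality. The 119 genes called in both fits are marked, and CLIC4, MRPS14, MAEA and SF3B2, the 4 largest rises on the x axis, lie between -0.19 and 0.52 on the y axis.

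The 4 largest rises were much smaller with the block. CLIC4, MRPS14, MAEA and SF3B2, named here after their values were seen, were higher in A by 2.99, 2.91, 2.60 and 2.45 (adjusted p = 0.0414, 0.0158, 0.0161 and 0.0309 from limma). With the block the differences were 0.20, -0.19, 0.52 and 0.23, and on A1 membranes alone 0.05, -0.19, 0.30 and 0.10. The rises in A2M, PCK1, TP53INP1 and LDHA described below kept their size.

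Conjugation enzymes of the liver fell together. Phase II enzymes attach glutathione, glucuronic acid, sulfate or glycine to foreign compounds, steroids and bilirubin and make them soluble. Of 20 measured genes of this list, which has 29 members, 19 were lower in A than in P and none was higher, and with the block 14 were lower. The median difference of the list was -1.20, or -1.34 with the block, beside -0.27 and -0.14 for all 1329 genes and -0.05 and -0.03 for all probes. The exception was NQO2, a quinone reductase, with a difference of -0.28 (adjusted p = 0.402).

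GSTM1, a cytosolic glutathione S-transferase, lay between 1.19 and 3.47 (median 2.11) in A and between 4.45 and 4.87 (median 4.71) in P. The highest A array was still below the lowest P array, and the P arrays were close together. Its difference, with its standard error (SE), was -2.45 (SE 0.31, limma adjusted p = 2.45e-05), a 5.45-fold lower level in A, and it was -2.54 (adjusted p = 0.000512) with the block. GSTA3, an alpha class enzyme of the same family that also acts in steroid isomerization, lay between 3.85 and 4.95 (median 4.19) in A and between 5.17 and 6.62 (median 5.83) in P, again without overlap. It differed by -1.60 (SE 0.21, limma adjusted p = 2.98e-05), and by -1.70 (adjusted p = 0.000512) with the block. MGST1, the membrane-bound transferase of the endoplasmic reticulum and mitochondria, lay between 5.05 and 5.89 (median 5.52) in A and between 6.23 and 7.01 (median 6.68) in P. Its 2 groups were also apart, with the smaller difference of -1.07 (SE 0.17, limma adjusted p = 0.000321) and -1.28 (adjusted p = 0.000678) with the block.

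UGT2B4, which joins glucuronic acid to bile acids, lay between 2.94 and 5.08 (median 4.41) in A and between 5.31 and 7.05 (median 6.23) in P. Every A array was below every P array, and the difference was -1.97 (SE 0.31, limma adjusted p = 0.000224), or -1.68 (adjusted p = 0.0119) with the block. GLYAT, the mitochondrial enzyme that joins glycine to benzoate, lay between 0.73 and 3.61 (median 2.80) in A and between 3.68 and 5.63 (median 4.69) in P. The arrays did not overlap, but the spread within each group was wide, and the difference of -2.07 (adjusted p = 0.00859) was -1.76 (adjusted p = 0.134) with the block. Under quantile normalization 9 of the 20 genes were lower, and with the identifier prefix as a block 8 were, with list medians of -0.81 and -0.996. Of all probes, 281 of 9598 and 141 of 9597 were lower under these settings, in place of 560. Leaving out any single array left 18 or 19.

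**Figure D2:**
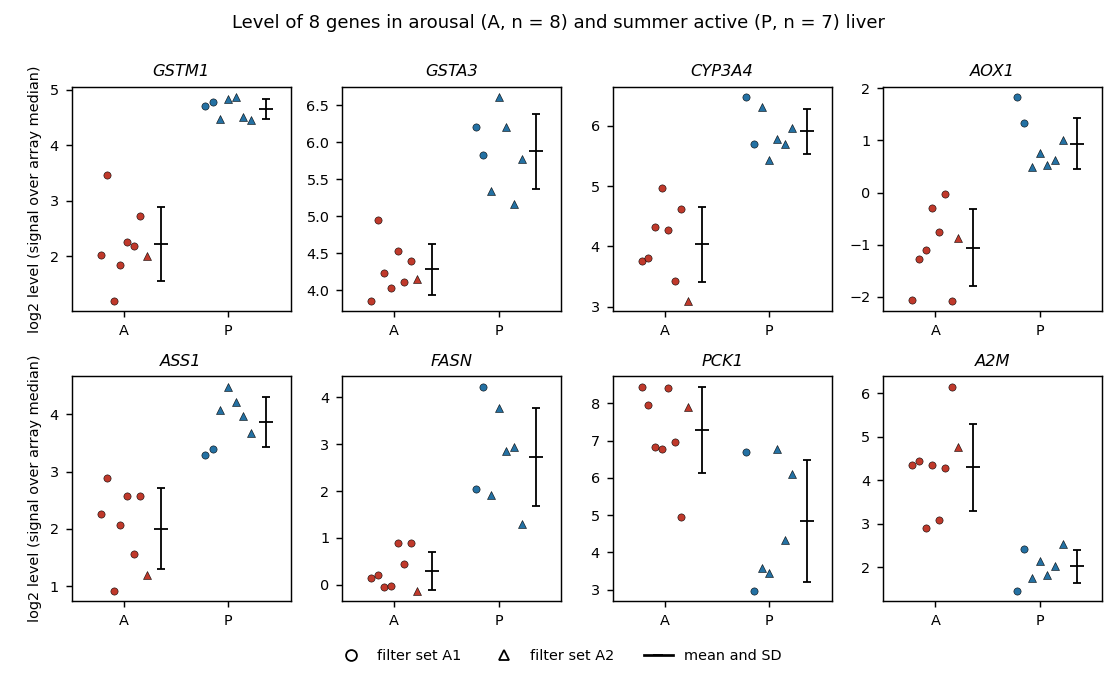
Log2 level (y axis) of 8 genes on every array of A (n = 8) and P (n = 7), with circles for filter set A1, triangles for A2, and bars for the mean and SD. GSTM1, GSTA3, CYP3A4, AOX1, ASS1 and FASN do not overlap and are lower in A, A2M does not overlap and is higher in A, and PCK1 is higher in A with 1 A array among the P arrays.

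Phase I enzymes oxidize, reduce or hydrolyze such compounds before conjugation, and of 28 measured genes 24 were lower in A and 1 was higher. With the block 14 were lower and none was higher. The list medians were -1.12 and -1.10. The higher gene was CYP4A11, a fatty acid omega-hydroxylase named after its values were seen, with 1.83 (adjusted p = 0.023) without and 0.76 (adjusted p = 0.635) with the block, and 0.10 on A1 membranes alone.

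CYP3A4, the main drug-oxidizing P450 of the human liver, lay between 3.09 and 4.97 (median 4.04) in A and between 5.43 and 6.48 (median 5.78) in P. All A arrays were lower than all P arrays. The difference was -1.88 (SE 0.29, limma adjusted p = 0.000253), a 3.67-fold lower level, and -2.21 (adjusted p = 0.000706) with the block. AOX1, the cytosolic aldehyde oxidase, lay between -2.08 and -0.02 (median -0.98) in A and between 0.49 and 1.84 (median 0.77) in P. The difference of -1.995 (SE 0.29, limma adjusted p = 7.45e-05) was -2.28 (adjusted p = 0.000512) with the block. CYP2D6, another drug-oxidizing P450, lay between 2.53 and 4.32 (median 3.49) in A and between 4.60 and 5.59 (median 4.94) in P. It differed by -1.60 (SE 0.21, limma adjusted p = 2.98e-05) and by -1.52 (adjusted p = 0.00126) with the block, and the lone A array on A2 membranes was closer to P than the A1 arrays were to theirs, with -0.60 against -2.02.

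ALDH2, the mitochondrial aldehyde dehydrogenase that clears acetaldehyde, lay between 2.15 and 3.41 (median 2.99) in A and between 4.29 and 5.28 (median 4.47) in P. The highest A array was well below the lowest P array, and the difference was -1.79 (SE 0.22, limma adjusted p = 1.46e-05), or -1.56 (adjusted p = 0.00104) with the block. In the whole phase I list the arrays of A and P did not overlap for 13 of 28 genes, and for 11 of 20 in the phase II list. Under quantile normalization 13 phase I genes were lower and 2 higher, and with the identifier prefix as a block 6 were lower and none was higher, with medians of -0.80 and -0.89. The count of lower genes lay between 19 and 24 with each array left out.

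**Figure D3:**
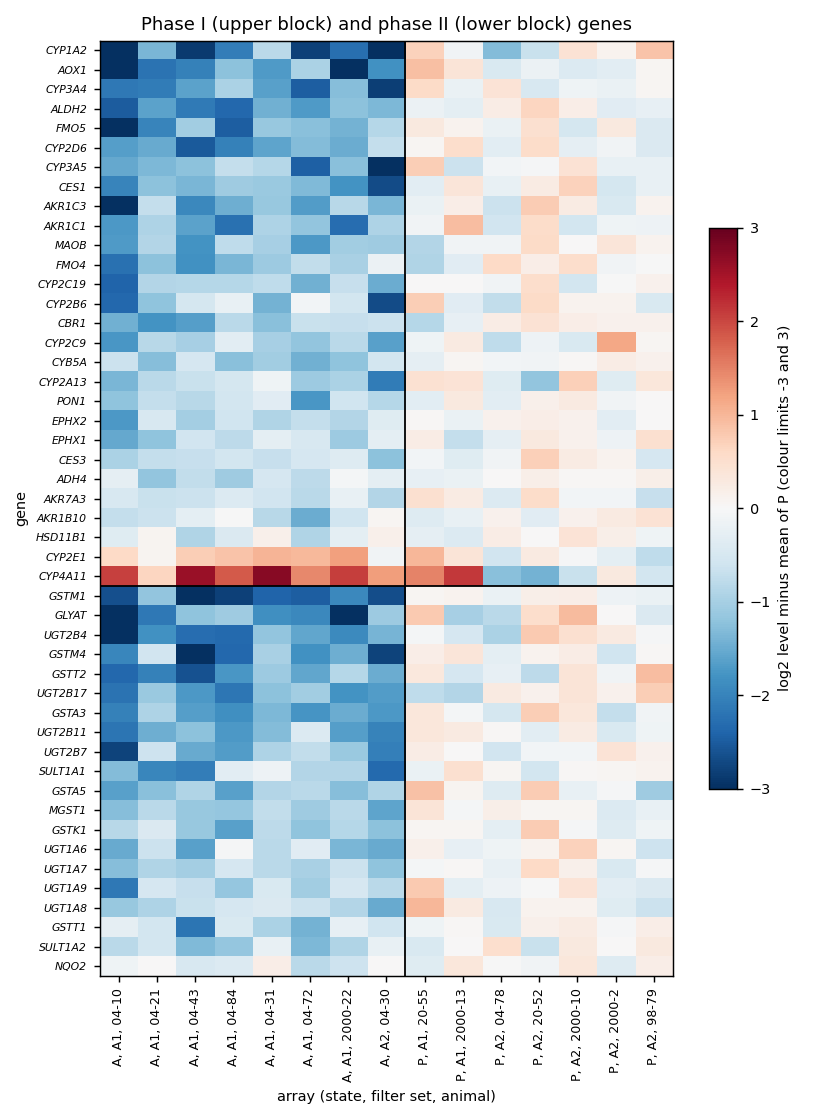
Level of the 28 phase I and 20 phase II genes (rows) on each A and P array (columns, with filter set and animal), as the log2 difference from the mean of the P arrays. In most rows all 8 A arrays are below the P mean, late arousal replicate 2 (04-30, A2) included, and CYP2E1 and CYP4A11 are the rows in which most A arrays are above it.

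Genes for the breakdown of amino acids and for the urea cycle were lower in A for 16 of 22 measured members and higher for none, with 9 lower with the block. The medians were -0.88 and -0.78. ASS1, which joins citrulline and aspartate in the urea cycle, lay between 0.92 and 2.89 (median 2.16) in A and between 3.29 and 4.49 (median 3.96) in P. The groups were apart, and the difference was -1.87 (SE 0.31, limma adjusted p = 0.000509), or -1.81 (adjusted p = 0.00927) with the block. BHMT, which remethylates homocysteine with betaine, lay between 1.01 and 2.23 (median 1.56) in A and between 2.51 and 5.19 (median 3.47) in P. The spread within P was wide, but no P array reached the A range, and the difference was -1.98 (SE 0.38, limma adjusted p = 0.00214), or -1.78 (adjusted p = 0.0388) with the block.

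BHMT2, its close relative, lay between -0.99 and 0.07 (median -0.61) in A and between 0.48 and 2.16 (median 0.77) in P, also without overlap, with a difference of -1.57 (adjusted p = 0.000224) and -1.15 (adjusted p = 0.0199) with the block. Their sequences are alike, so that the 2 probes may share signal. QDPR regenerates the cofactor of phenylalanine hydroxylase, and lay between 1.93 and 2.81 (median 2.42) in A and between 2.95 and 3.89 (median 3.16) in P. The groups were close to each other without touching, and the difference was -0.86 (SE 0.17, limma adjusted p = 0.00214), or -0.74 (adjusted p = 0.0468) with the block. With each array left out between 10 and 17 genes of the list were lower: 10 without summer active replicate 4 or 5, and 17 without late arousal replicate 2. Under quantile normalization 8 were lower, and with the identifier prefix as a block 2 were, with medians of -0.62 and -0.75.

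Genes of fat synthesis held the 4 largest falls among genes with a symbol, ELOVL6, ACLY, THRSP and SCD. Of 11 measured genes of fatty acid and triglyceride synthesis, 8 were lower in A and 2 were higher, and with the block 7 were lower and none was higher. Without the block the median was -2.27. GPAM, the first enzyme of triglyceride assembly, lay between 0.27 and 1.66 (median 1.11) in A and between 1.85 and 4.55 (median 3.37) in P. All A arrays were below all P arrays, and the difference was -2.27 (SE 0.29, limma adjusted p = 2.45e-05), or -1.88 (adjusted p = 0.00218) with the block. FASN, fatty acid synthase, lay between -0.13 and 0.90 (median 0.17) in A and between 1.29 and 4.23 (median 2.87) in P. The A arrays were close together and the P arrays were spread more widely, and the difference was -2.42 (SE 0.31, limma adjusted p = 2.86e-05), or -2.74 (adjusted p = 0.000187) with the block.

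ELOVL6, which elongates saturated fatty acids, differed most of all named genes, by -4.18 on A1 and A2 membranes together, -3.83 on A1 alone and -5.24 on A2 alone. THRSP, which promotes lipogenesis, and SCD, which desaturates fatty acids, differed by -2.81 and -2.89 with the block, close to their values without it. The 2 higher genes, LPIN2 and AGPAT6, named after their values were seen, both act in glycerolipid assembly. They had differences of 1.76 (adjusted p = 0.00585) and 1.05 (adjusted p = 0.0195) without the block and 1.06 (adjusted p = 0.256) and 0.36 (adjusted p = 0.671) with it. The direction of LPIN2 is opposite to that in the text of the paper, which reports it as under-expressed in hibernation. It is not opposite to the study's own gene list, because the state means in that list paired the symbol with this probe.

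Of the 4 measured genes of the pentose phosphate pathway, which supplies NADPH for fat synthesis, PGD, TALDO1 and TKT were lower in A with and without the block. PGD, an NADPH-producing enzyme, lay between -1.36 and -0.58 (median -1.01) in A and between -0.46 and 1.32 (median 0.43) in P. It did not overlap, and differed by -1.46 (SE 0.20, limma adjusted p = 4.06e-05) and by -1.08 (adjusted p = 0.00451) with the block. TKT, transketolase, lay between -0.80 and 1.38 (median 0.58) in A and between -0.02 and 2.86 (median 2.07) in P. Only 1 A array was below the lowest P array, and the difference of -1.38 (adjusted p = 0.00951) was larger with the block, -2.04 (adjusted p = 0.00116).

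In sterol synthesis and its control 8 of 11 genes were lower and none was higher, and 4 were lower with the block. INSIG1, which holds the sterol-sensing complex in the endoplasmic reticulum, lay between 1.41 and 2.40 (median 1.78) in A and between 2.65 and 4.71 (median 2.99) in P, without overlap. It differed by -1.51 (SE 0.23, limma adjusted p = 0.000191), and by -1.52 (adjusted p = 0.00315) with the block. ACAT2, the cytosolic thiolase that starts the pathway from acetyl-CoA, differed by -1.73 (adjusted p = 0.000811), and by -1.25 (adjusted p = 0.0469) with the block. EBP, a late isomerase, had -1.19 (adjusted p = 0.00502) without and -1.18 (adjusted p = 0.0451) with it. SC4MOL, a sterol demethylase, had -1.31 (adjusted p = 0.0075) without and -1.25 (adjusted p = 0.0719) with the block.

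KIAA0776, also known as UFL1, a ligase for the small modifier UFM1, belongs to none of the lists and was among the 10 largest falls without overlap of the arrays. It lay between 4.29 and 5.48 (median 4.91) in A and between 6.48 and 7.29 (median 7.01) in P. The groups were wide apart, and the difference was -2.01 (SE 0.24, limma adjusted p = 1.24e-05), or -2.22 (adjusted p = 0.000119) with the block.

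Few genes rose without overlap. Only 5 genes with an adjusted p under 0.05 had all A arrays above all P arrays: A2M, LDHA, EGR1, SLC25A4 and NFX1. A2M, the broad protease inhibitor alpha-2-macroglobulin, lay between 2.90 and 6.15 (median 4.34) in A and between 1.45 and 2.52 (median 2.02) in P. The A arrays covered a wide range, all of it above P, and the difference was 2.28 (SE 0.31, limma adjusted p = 4.52e-05), a 4.85-fold higher level, or 2.44 (adjusted p = 0.000678) with the block. LDHA, which interconverts pyruvate and lactate, lay between 5.92 and 7.38 (median 6.52) in A and between 4.69 and 5.37 (median 4.91) in P. Its P arrays were tight and its A arrays were not, and the difference was 1.70 (adjusted p = 0.00283), or 1.74 (adjusted p = 0.0238) with the block. With the identifier prefix as a block LDHA was not called.

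NFX1, a zinc finger regulator of transcription, lay between -0.52 and 0.02 (median -0.20) in A and between -1.19 and -0.66 (median -0.94) in P. The groups were narrow and close together, with a difference of 0.68 (SE 0.16, limma adjusted p = 0.0103), or 0.75 (adjusted p = 0.0363) with the block. EGR1, an immediate early transcription factor, lay between -0.35 and 2.51 (median 0.43) in A and between -1.69 and -0.44 (median -0.77) in P. SLC25A4, a heart and muscle form of the mitochondrial ADP/ATP carrier, lay between 2.40 and 3.01 (median 2.81) in A and between 0.79 and 2.38 (median 1.82) in P. These 2 genes differed by 1.68 (adjusted p = 0.00782) and 1.02 (adjusted p = 0.00351), but by 1.37 (adjusted p = 0.147) and 0.79 (adjusted p = 0.108) with the block.

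PCK1, the cytosolic enzyme that commits carbon to gluconeogenesis, lay between 4.96 and 8.45 (median 7.42) in A and between 2.97 and 6.78 (median 4.32) in P. In all, 7 of 8 A arrays were above every P array, and the P arrays fell into a wide range. The difference was 2.44 (SE 0.54, limma adjusted p = 0.00606), or 2.60 (adjusted p = 0.0328) with the block, and it was not called with the identifier prefix as a block. Of 13 measured genes of gluconeogenesis and glycogen, 2 were higher and 6 lower without the block, and with it PCK1 was the only one called. The second higher gene was G6PC, glucose-6-phosphatase, named after its values were seen, with 0.995 (adjusted p = 0.011) and 0.99 (adjusted p = 0.0799) with the block. UGP2, which makes UDP-glucose for glycogen and for glucuronidation, was lower at -1.23 (adjusted p = 0.00125), with -0.88 (adjusted p = 0.0608) with the block. GPT, alanine aminotransferase, and MDH1, cytosolic malate dehydrogenase, were lower without the block, at -1.07 (adjusted p = 0.00782) and -0.92 (adjusted p = 0.00908).

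Of 7 genes of glycolysis LDHA was higher, and GPI and ENO1 were lower at -0.69 (adjusted p = 0.00965) and -0.63 (adjusted p = 0.0214). With the block LDHA alone was called. Without late arousal replicate 2, 4 of the 7 were lower. ALDOA, an aldolase, had -0.69 (adjusted p = 0.0523).

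Genes of fat oxidation were called about as often as all genes with a symbol. In the mitochondrial list, with the ketone body enzymes, 2 of 14 genes were higher and 4 lower without the block, and with the block none was called, with a limma adjusted p over the threshold in each. The median was 0.33 without and -0.06 with the block, so that its sign turned. Among the lower genes, ACADS, the short-chain acyl-CoA dehydrogenase, differed by -1.07 (adjusted p = 0.0053), DCI, an enoyl-CoA isomerase, by -1.20 (adjusted p = 0.00923), and MLYCD, malonyl-CoA decarboxylase, by -0.84 (adjusted p = 0.0141). The 2 higher genes, OXCT1 and HADHB, named after their values were seen, had 1.32 (adjusted p = 0.0182) and 0.80 (adjusted p = 0.0185).

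In the peroxisome list 6 of 17 genes were lower and 1 was higher, and with the block 3 were lower and 1 was higher. CAT, catalase, which breaks down hydrogen peroxide, lay between 2.89 and 4.29 (median 3.93) in A and between 4.83 and 6.46 (median 5.96) in P. The groups were apart, with a difference of -1.97 (SE 0.24, limma adjusted p = 1.76e-05) and -1.62 (adjusted p = 0.0016) with the block. PHYH, which starts the oxidation of phytanic acid from plant food, and AMACR, which lets branched acids enter oxidation, overlapped with P and were lower at -1.51 (adjusted p = 0.0147) and -1.001 (adjusted p = 0.00726). The blocked values were -1.78 (adjusted p = 0.0362) and -1.20 (adjusted p = 0.0149). CROT, which moves medium-chain products out of peroxisomes as carnitine esters, was the higher gene and lay between 1.68 and 3.72 (median 3.09) in A and between 0.88 and 2.12 (median 1.40) in P. All but 1 of the A arrays were above every P array, and the difference was 1.501 (SE 0.27, limma adjusted p = 0.00112), or 1.48 (adjusted p = 0.0139) with the block. With the identifier prefix as a block it was not called. Without late arousal replicate 2, 9 genes of the list were lower and 2 higher, and without summer active replicate 5 or 7, 4 were lower.

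Secreted plasma proteins, the main export of hepatocytes, were lower for 10 of 29 measured genes and higher for 2, and with the block for 5 and 1. The 5 were FN1, TTR, APOA2, F5, a clotting cofactor, and CFI, a complement regulator, and A2M was the 1 higher gene. F5, CFI and ITIH3, which was higher without the block at 1.12 (adjusted p = 0.0141), are named after their values were seen. FN1, plasma fibronectin, lay between 3.64 and 4.71 (median 3.98) in A and between 4.80 and 6.02 (median 5.23) in P. The difference was -1.24 (SE 0.22, limma adjusted p = 0.000897), without overlap, and -1.55 (adjusted p = 0.000775) with the block. TTR, transthyretin, which carries thyroid hormone and retinol-binding protein, lay between 5.95 and 6.92 (median 6.25) in A and between 7.04 and 8.09 (median 7.80) in P. It did not overlap either and differed by -1.32 (SE 0.24, limma adjusted p = 0.00165), or -1.46 (adjusted p = 0.00699) with the block. CPB2, a carboxypeptidase that slows the lysis of clots, differed by -1.09 (adjusted p = 0.00225) without and -0.92 (adjusted p = 0.0507) with the block. The count of lower genes was 14 without late arousal replicate 2, and 5 and 6 without summer active replicates 4 and 5. Under quantile normalization 2 were lower and 3 higher, so that neither TTR nor APOA2 was called there.

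Of 10 genes of bile acid synthesis and liver transport, 4 were lower in A, and 3 of them with the block. SLC27A5, which activates bile acids for conjugation, lay between 0.36 and 0.83 (median 0.52) in A and between 0.92 and 1.74 (median 1.58) in P. The A arrays were close to each other and below all P arrays, and the difference was -0.81 (SE 0.15, limma adjusted p = 0.00153), or -0.71 (adjusted p = 0.0318) with the block. HSD3B7, a steroid dehydrogenase of bile acid synthesis, differed by -1.16 (adjusted p = 0.00153), and SLC10A1, the sodium-dependent importer of bile acids, by -1.05 (adjusted p = 0.0187). Under the block the values were -0.93 (adjusted p = 0.0474) and -1.40 (adjusted p = 0.0165). ABCB11, the bile salt export pump, differed by -1.33 (adjusted p = 0.00502) without and -1.15 (adjusted p = 0.0906) with the block. SLCO1A2, an organic anion transporter named after its values were seen, was called with the block only, at 0.73 (adjusted p = 0.0497).

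**Figure D4:**
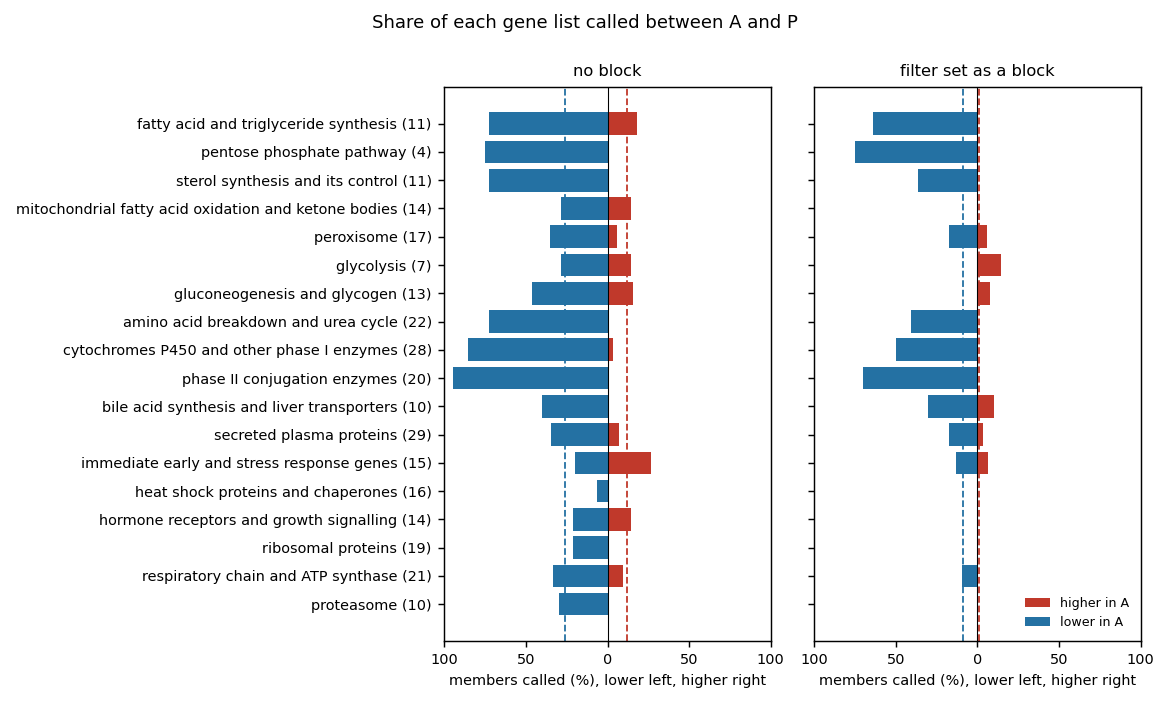
Share of the measured members of each gene list (rows, number measured in brackets) called lower (bars to the left) or higher (bars to the right) in A than in P, in the left panel without and in the right panel with the block for filter set. Dashed lines are the shares of all 1329 genes with a symbol. In both panels the left bars pass the dashed line for the phase I, phase II, fatty acid, pentose phosphate, sterol, amino acid, bile acid, plasma protein, peroxisome and respiratory chain lists.

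Immediate early and stress response genes went both ways: 4 of 15 were higher and 3 lower, and with the block 1 was higher and 2 were lower. TP53INP1, a p53-induced protein that also acts in autophagy, lay between 3.81 and 5.84 (median 4.39) in A and between 2.02 and 4.20 (median 2.47) in P. In all, 5 of 8 A arrays were above every P array, and the difference was 1.86 (SE 0.33, limma adjusted p = 0.00125), or 2.14 (adjusted p = 0.00367) with the block. SGK1, a kinase induced by glucocorticoids and insulin, lay between 1.498 and 3.89 (median 2.26) in A and between 3.204 and 4.37 (median 3.78) in P. A single A array lay inside the P range, and the difference was -1.47 (adjusted p = 0.00283), or -1.32 (adjusted p = 0.0498) with the block. TOB1, an antiproliferative protein, lay between 1.45 and 3.26 (median 2.70) in A and between 2.82 and 5.06 (median 3.80) in P. It differed by -1.48 (adjusted p = 0.00283) and -1.71 (adjusted p = 0.00816) with the block. EGR1, described above without overlap of the groups, was also called higher. The other called genes were NFKBIA, an inhibitor of NF-kappa-B, and DDIT3, a factor of the endoplasmic reticulum stress response, both higher, and HMOX1, heme oxygenase, lower, all named after their values were seen, at 0.65 (adjusted p = 0.0167), 0.70 (adjusted p = 0.0295) and -0.82 (adjusted p = 0.0401).

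Heat shock proteins and chaperones were nearly all uncalled, with HSPE1, the mitochondrial co-chaperonin, lower at -0.81 (adjusted p = 0.0317) and 0 of 16 called with the block. Without late arousal replicate 2, 6 were lower and 2 higher, and without summer active replicate 3, 3 were lower. PTGES3, CCT5 and CCT3, chaperones of the cytosol, had -0.57, 0.58 and -0.85 (adjusted p = 0.0683, 0.0688 and 0.0867 from limma). CIRBP, the cold-inducible RNA-binding protein, lay between 0.53 and 2.14 (median 1.83) in A and between 0.04 and 1.11 (median 0.52) in P. It was higher in A by 1.02 (SE 0.19, limma adjusted p = 0.00202), but by 0.71 (adjusted p = 0.0938) with the block. On A2 membranes the lone A array was at -0.05 from P. In T the level of CIRBP lay between 2.69 and 3.41 (median 3.03), above every A array. A differed from T by -1.38 (limma adjusted p = 0.000334). A part of the preceding torpor in the difference from P was not tested.

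Hormone receptors and growth signalling had 2 of 14 genes higher and 3 lower, with none called with the block. Among the lower genes, GHR, the growth hormone receptor, and FOXO3, a transcription factor restrained by insulin, had -1.34 (adjusted p = 0.00502) and -1.26 (adjusted p = 0.00219). PDPK1, a kinase of the insulin pathway, was higher by 0.71 (adjusted p = 0.015), and ERBB2, a growth factor receptor named after its values were seen, by 0.95 (adjusted p = 0.0489). With the block the adjusted p of GHR, FOXO3 and PDPK1 was 0.181, 0.105 and 0.539 from limma. Without late arousal replicate 2, 5 genes of the list were lower.

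Ribosomal proteins were lower for 4 of 19 measured genes, RPL12 at -1.35 (adjusted p = 0.000731), RPS27A at -0.93 (adjusted p = 0.0225), RPL27 at -0.53 (adjusted p = 0.0406) and RPS15A at -0.70 (adjusted p = 0.0443), and none was called with the block. Between 1 and 6 were lower with an array left out: 1 without early arousal replicate 1 or summer active replicate 7, 2 without early arousal replicate 4, late arousal replicate 3 or summer active replicates 2, 4, 5 or 6, and 6 without late arousal replicate 4. The share of lower genes was below that of all 1329 genes. The median of the list was -0.43 without and -0.48 with the block, beside -0.27 and -0.14 for all 1329 genes. With the block all 19 differences were below 0. Under quantile normalization the median was -0.11, with 1 gene called lower and 1 higher. Of 21 genes of the respiratory chain and ATP synthase, 7 were lower and 2 higher, and with the block 2 were lower. These were UQCRC2, a core subunit of complex III, which lay between 0.72 and 1.12 (median 0.96) in A and between 1.13 and 2.96 (median 2.30) in P, and NDUFA4, a subunit of cytochrome c oxidase, which lay between -1.18 and 0.46 (median 0.12) in A and between 0.67 and 1.69 (median 1.03) in P. Neither overlapped, and the differences were -1.21 (SE 0.23, limma adjusted p = 0.00217) and -1.04 (SE 0.21, limma adjusted p = 0.00283), or -1.21 (adjusted p = 0.0202) and -0.94 (adjusted p = 0.0429) with the block. Of the higher genes, NDUFA4L2 differed by 0.98 (adjusted p = 0.0103) and NDUFV1 by 0.85 (adjusted p = 0.0184), with 0.33 and 0.34 with the block.

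The count of lower respiratory genes was 2 without summer active replicate 2, 4 or 5, 3 without early arousal replicate 1 or 4 or summer active replicate 6, and 4 without early arousal replicate 3, late arousal replicate 1 or summer active replicate 7. It was 10 without late arousal replicate 2. The proteasome had 3 of 10 genes lower, PSME4, an activator, at -0.97 (adjusted p = 0.0179), PSMD12, of the regulatory lid, at -1.08 (adjusted p = 0.0271), and PSMB5, a catalytic subunit, at -0.61 (adjusted p = 0.0328). None of them was called with the block. With an array left out the count was 1 without early arousal replicate 1 or 3, late arousal replicate 1 or summer active replicate 4, and 5 without late arousal replicate 2. PSMB7, another catalytic subunit, had -0.71 (adjusted p = 0.0805).

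Marker genes of cell types were set beside the labelled tissue. Of 10 hepatocyte markers 7 were measured, and the probes of all 7 had a signal over 2 times their local background on every A and P array. At least 8157 of the 9600 probes passed this cut on each of these arrays, so that passing it does not tell tissues apart. ALB, albumin, lay between 7.95 and 8.97 (median 8.42) in A and between 8.03 and 8.49 (median 8.27) in P, and differed by 0.15 (SE 0.20, limma adjusted p = 0.679). The groups overlapped, as they did for APOB and ASGR2, at -0.15 (adjusted p = 0.62) and 0.06 (adjusted p = 0.882). TTR, APOA2 and SERPINA1 were lower in A, APOA2 at -1.11 (adjusted p = 0.00261) and SERPINA1 at -0.81 (adjusted p = 0.0414), and FGB had -0.78 (adjusted p = 0.135). The sum of the 7 linear levels was 406 to 703 (median 580) in A and 624 to 941 (median 706) in P. In T the sum was 483 to 1291 (median 746). All of these markers except ASGR2 are also in the plasma protein list, so that the sum and that list are not separate. A part of the sum in the lower plasma protein, phase I and phase II genes was not tested.

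A further 26 measured genes marked other cell types, and 20 of them had a signal over 2 times their local background on every A and P array. The exceptions were CD27, FLT1, VCAN, MYOM2, ACTA1 and DES, with 6, 1, 6, 3, 2 and 5 of 7 P arrays over it. ACTA1 was over it on 7 of 8 A arrays and the others on all 8. Of 3 measured lymphocyte and plasma cell markers, IGJ, the joining chain of secreted antibodies, lay between -0.12 and 1.33 (median 0.62) in A and between 0.90 and 4.21 (median 2.35) in P, and IGLL3, an immunoglobulin light chain-like gene, lay between -0.20 and 1.68 (median 0.68) in A and between 0.47 and 4.45 (median 2.71) in P. Both were lower in A, at -1.71 (SE 0.33, limma adjusted p = 0.00259) and -1.82 (SE 0.41, limma adjusted p = 0.00782). With the block IGJ had -1.64 (adjusted p = 0.0318) and IGLL3 -2.02 (adjusted p = 0.0314). The P arrays differed widely among themselves and reached down into the A range. CD27, a lymphocyte receptor, had 0.51 (adjusted p = 0.132). The summed level of the list was 2.43 to 6.16 in A and 3.52 to 40.5 in P. In a bulk sample fewer cells of a type and less RNA per cell cannot be told apart.

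Of 3 macrophage markers LYZ was lower at -1.14 (adjusted p = 0.0354), with -1.10 (adjusted p = 0.222) with the block, and FCGR3A and LAPTM5 had 0.38 (adjusted p = 0.473) and 0.31 (adjusted p = 0.493). The list sum was 5.34 to 11.8 in A and 5.17 to 23.1 in P. Of 6 stellate cell and fibroblast markers, LUM was lower at -0.77 (adjusted p = 0.0411) and VCAN higher by 0.54 (adjusted p = 0.0481), and the sum was 4.40 to 5.31 in A and 4.02 to 5.54 in P. Of 8 striated muscle markers ACTA1 and MYOM2 were higher, by 1.10 (adjusted p = 0.0358) and 0.68 (adjusted p = 0.0319), and the sum was 4.61 to 5.93 in A and 4.19 to 5.21 in P. None of these was called with the block, and neither muscle gene was called without early arousal replicate 1, late arousal replicate 3 or 4, or summer active replicate 2, 5 or 7. The other markers were uncalled in both fits. The summed level of the 2 erythroid markers, with HBA2 at -1.08 (adjusted p = 0.0774), was 1.03 to 2.79 in A and 2.17 to 3.23 in P. It was 3.80 to 7.17 in A and 4.52 to 8.79 in P for 2 endothelial markers, 0.9998 to 1.98 and 1.45 to 2.21 for 1 cholangiocyte marker, and 0.862 to 1.502 and 0.715 to 1.16 for 1 adipocyte marker. Their part in the differences of other genes was not tested.

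Some genes stood apart in A from both P and T. In all, 17 of 9598 probes (0.177%) differed between A and P and, in the same direction, between A and T, 16 of them (0.167%) lower in A. Both contrasts use the same A arrays. Between A and T, 45 probes (0.469%) differed, 8 (0.0834%) higher and 37 (0.385%) lower in A, and of the 1329 genes 31 (2.33%), 8 (0.602%) higher and 23 (1.73%) lower. The 17 probes carried 11 genes (0.828% of 1329), of which the 8 with the largest smaller change are described. The number was 3 under quantile normalization and 57 without late arousal replicate 2.

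ALDH2, described above, lay between 3.23 and 4.58 (median 4.18) in T, with 1 T array inside the range of A. The difference of A from T was -1.17 (SE 0.20, limma adjusted p = 0.00686). GSTA3 lay between 4.79 and 6.00 (median 5.39) in T, with 2 T arrays inside the A range, and its difference from T was -1.04 (adjusted p = 0.0117). FN1 lay between 4.72 and 5.89 (median 5.36) in T, above every A array, and differed by -1.21 (adjusted p = 0.00686).

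TP53INP1 was the only one of the 11 that was higher in A. It lay between 2.31 and 3.89 (median 3.07) in T, with A above T by 1.61 (adjusted p = 0.0167). Against P these 4 genes were also called with the block. CXCL12, a chemokine that holds stem cells and lymphocytes in tissues, was lower in A, at -0.69 (adjusted p = 0.0279) from P and -0.98 (adjusted p = 0.0117) from T. AP3M2, a subunit of a vesicle coat adaptor, was lower at -0.81 (adjusted p = 0.0111) and -0.83 (adjusted p = 0.0339) in the same order. TM6SF1, a membrane protein of lysosomes, was lower at -0.89 (adjusted p = 0.0225) and -1.05 (adjusted p = 0.0319), and C1orf160 at -0.75 (adjusted p = 0.0166) and -0.86 (adjusted p = 0.0241). With the block these last 4 genes were not called against P.

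**Figure D5:**
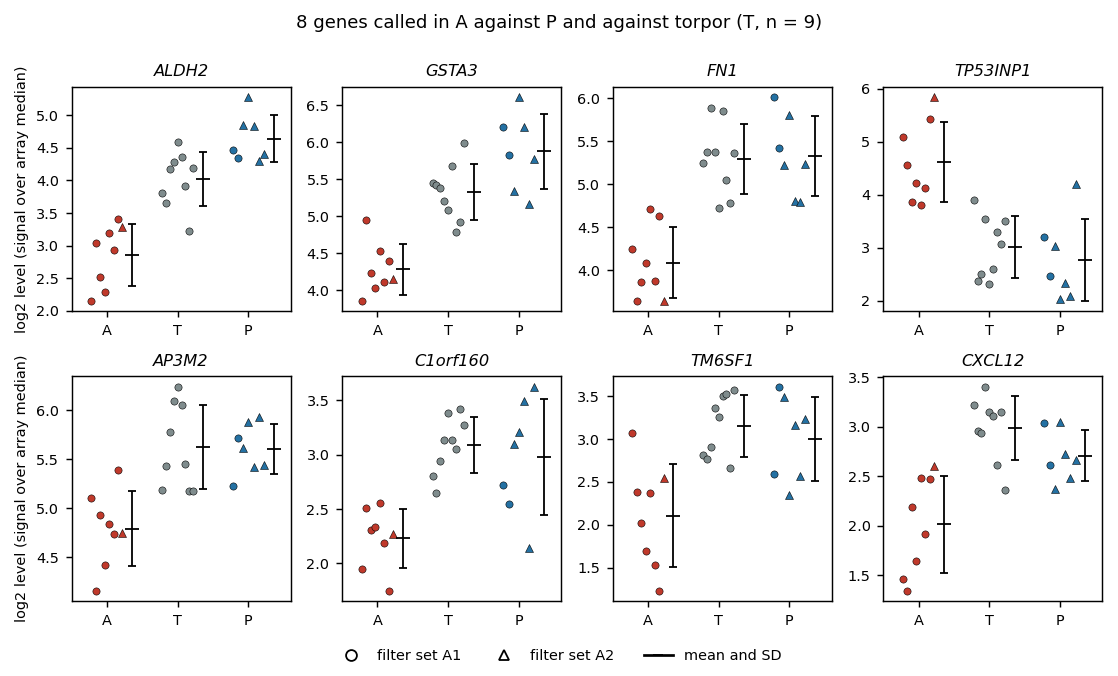
Log2 level (y axis) of the 8 genes called in A against both P and T, on every array of A (n = 8), T (n = 9) and P (n = 7), with circles for filter set A1, triangles for A2, and bars for the mean and SD. Most A arrays lie below those of T and P, except for TP53INP1, where A is higher.

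The lists that were lower in A were set beside torpor through the contrast of A with T, which holds no P array. Of the 22 amino acid genes 0 were called between A and T with limma, with a list median of -0.42, beside -0.19 for all 1329 genes. In the phase I list ALDH2 alone was called and in the phase II list GSTA3 alone, both lower in A, and the medians were -0.60 and -0.57. T and P were compared with the same P arrays as A and P, where 418 of 9598 probes (4.36%) and 288 of the 1329 genes (21.7%) were lower in T. There 4 of the 22 amino acid, 10 of the 28 phase I and 8 of the 20 phase II genes were lower in T. In fat synthesis 8 of 11 were lower in T than in P and 0 differed between A and T, with a median of -0.17.

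Early and late arousal were also set against P separately, in a fit over 5 groups. Against P, 851 of 9593 probes (8.87%) differed in early arousal and 97 (1.01%) in late arousal, while 0 differed between early and late arousal with limma, with 747 at an unadjusted p under 0.05. A difference between the stages was thus not shown. Under the block the numbers against P were 175 (1.82%) and 110 (1.15%). Late arousal held the lone A array on an A2 membrane, 04-30, and without this array the numbers were 1173 (12.2%) and 258 (2.69%). Early and late arousal with the block, and also without 04-30, differed at 0 probes.

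The other 8269 probes had no symbol here, and are what remained after the study had taken out its selected genes. Of these, 300 differed between A and P, 90 higher and 210 lower in A. With the block 69 of the 300 were called again, 4 of the higher and 65 of the lower ones, and 299 kept their direction. Lower probes outnumbered higher ones, as they did among all 9598 probes, of which 811 (8.45%) differed. Both counts come from the same arrays, so that they are not independent evidence.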

How the data were processed

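The authors amplified and labelled liver RNA of each animal with 33P and hybridized it to a nylon cDNA membrane, which was scanned and read with ImaGene. The deposited scanner files hold the intensity of every spot and its local background. The deposited series table holds the linear ratio of background-subtracted median signal to the array median, with a floor of 0.002 at 2299 spots. The ratio was recomputed, which differed by less than 1e-06 elsewhere, and log2 transformed, with 668 of 230400 spots at or below 0 left missing. It is relative to the middle probe, so that a change of all RNA is not seen. Each array is 1 animal, and its number of probes over background and the number of arrays limit the precision.

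States were compared in R 4.3.3 with the limma package, version 3.58.1 (lmFit and eBayes over the 24 arrays of A, P and T), with Benjamini-Hochberg adjustment over all probes and a threshold of 0.05. Every adjusted p in the text is from these fits. The filter set was read from the scanner file names. The fits were tested on simulated arrays with known changes. Symbols come from the study's list of 1329 genes, each matched to 1 probe by its state means (largest distance 5e-06, next probe at least 0.00532 away). RefSeq symbols of the AGS assembly held 992 of them.

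Named genes are the up to 10 largest rises and falls without overlap of arrays, up to 4 genes of smallest p in each list, up to 8 genes apart from both P and T, and cell type markers. The members and lists were chosen with earlier results of these data known. Alternatives were filter set and identifier prefix as blocks, each filter set alone, A and P arrays only, 5 groups, normexp (offset 50), a floor under the lowest values, quantile normalization, empty spots as missing, the deposited ratio, dim probes left out, the methods' test, and each array left out. A block or left-out array in the fit of 5 groups was added after the data were seen. Tables were made with pandas 2.3.3 and the exact permutation tests with scipy 1.17.1. Probe sequences were not used here, and a few genes of the lists are counted but not reported here by name.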

Additional observations from a re-analysis of the deposited data

Results flagged for a closer look

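In 222 groups of arrays, each a named gene in A or in P, a single array was tested for a gap from the rest of its group, and 9 groups were picked out, where chance alone picks about 1 in 20. Late arousal replicate 2, the A array on an A2 membrane, was the array in 6 of the 9. Its log2 level was the lowest of A for ACTA1 at -3.3999 (other A arrays -2.1325 to -1.5948), for CIRBP at 0.5299 (1.4155 to 2.1447) and for PDPK1 at -2.5046 (-1.6317 to -1.2572). It was the highest of A for DES at -1.0677 (other A arrays -2.7982 to -2.1348), for ENO1 at 3.0617 (2.0346 to 2.3148) and for PSMD12 at 1.9013 (-0.4455 to 0.5758). Late arousal replicate 4 was the lowest of A for NDUFA4 at -1.1783 (-0.2257 to 0.4612) and the highest for SGK1 at 3.8889 (1.4979 to 2.5759). In P, replicate 2 was the highest for QDPR at 3.8924 (other P arrays 2.9515 to 3.3336).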

How the results depend on the processing

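The number of probes that differed between A and P was 811 (251 higher, 560 lower in A). The block for filter set gave 259 (32 and 227), A1 membranes alone 84 (13 and 71), A2 membranes alone, with a single A array that shows no spread between A animals, 51 (5 and 46), the identifier prefix as a block 240 (99 and 141), A and P arrays only 406 (79 and 327), and these with the block 165 (15 and 150). The normexp correction gave 1752 with 1459 lower, quantile normalization 281 lower, and the methods' test 1265 with 455 higher. The floor, empty spots as missing, the deposited ratio, dim probes left out and 5 groups kept all 3 counts within 1.5 times. Probes apart from P and T in the same direction numbered 17, and 9 on A1 membranes, 30 with 5 groups, 3 under quantile normalization, 26 with dim probes left out and 240 by the methods' test. Early arousal against P gave 175 with the block, and late arousal 258 without replicate 2.

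With each array left out, the count lay between 476 and 1540, that of higher probes between 113 and 570, that of lower probes between 352 and 970, and that of probes apart from P and T between 10 and 57. The higher count moved by over 1.5 times without early arousal replicates 1 (141), 3 (160) and 4 (159), late arousal replicate 2 (570) and summer active replicates 1 (464), 2 (160), 3 (452), 4 (133), 5 (113), 6 (130) and 7 (121). The lower count did so without late arousal replicate 2 (970) and summer active replicates 4 (352) and 5 (363). No paired analysis was possible because the labels give animal identifiers and no shared replicate numbers.

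Of 85 named genes called between A and P, 45 kept the call with the block, 44 with the identifier prefix as a block, 23 on A1 membranes, 69 with normexp and 62 with quantile normalization, and between 73 and 85 with an array left out. The sign turned on A2 membranes for CIRBP (-0.0488), MLYCD (0.0674), PDPK1 (-0.0778), ENO1 (0.1368), PSMD12 (0.4679), HSPE1 (0.3215) and PSMB5 (0.0996), on A1 membranes for ACTA1 (-0.0555), and with normexp for PDPK1 (-0.0197) and ACTA1 (-0.0825). The cause was not tested.

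Among genes not called, it turned on A1 membranes for TNNT2 (-0.0497), DCN (-0.2689), FABP4 (-0.0274), DES (0.1422), NRAP (-0.1272), FCGR3A (-0.583), LAPTM5 (-0.1616), NPPA (0.4669) and ASGR2 (-0.2072). On A2 membranes it turned for PSMB7 (0.4274), CCT3 (0.9515), FLT1 (-0.0046), ALB (-0.2572) and LRAT (0.2518). With the block, over all arrays and over A and P alone, it turned for DES (0.0852), FCGR3A (-0.0741), LAPTM5 (-0.0631), NPPA (0.2712), ASGR2 (-0.0376) and LRAT (0.0854). With normexp it turned for FLT1 (-0.1844, adjusted p = 0.0436 from limma, and so called lower in A, against 0.34 without it), PCOLCE (-0.0279), APOB (0.1163) and CD93 (0.0799), with quantile normalization for APOB (0.2739) and CD93 (0.1667), and with the identifier prefix for APOB (0.1198). With an array left out, ASGR2 lay between -0.0148 and 0.1743 (below 0 without late arousal replicate 3, or summer active replicate 6 at -0.0139), and LRAT between -0.0753 and 0.0357, above 0 also at 0.0016, 0.0012 and 0.0069.

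The arrays of P had fewer probes over background than those of A, so that low levels in P are less well measured, and the 7 P and 8 A arrays limit the precision. Only 2 P arrays shared a membrane set with most A arrays.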
